A study of Mus musculus with 2 samples.

Results

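The stimulated T cells described here are spleen T cells in which at least 2 of the immediate early genes Egr1, Egr2, Egr3, Nr4a1 and Nr4a3 were detected, each by 1 or more molecules, and in which no molecule of the B cell receptor gene Cd79a was found. A T cell was any kept cell with at least 1 molecule of Cd3d, Cd3e or Cd3g, the genes of the CD3 chains that carry the T cell receptor signal. Of 15278 T cells, 574 met the rule, among 17299 putative cells in all. The 14503 other T cells without a Cd79a molecule served as the comparison, of which 1546 had exactly 1 of the 5 genes and 12957 had none. A further 6 T cells had at least 2 of the genes together with a Cd79a molecule and belonged to neither class. The members were chosen on the measured values of these 5 genes, so those values, and every other gene of the same cells set against other cells, are descriptions without a test.

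The cells came from spleens of female mice of the strain C57/BL6N in 3 groups of 3 mice. A saline group was taken at 0 h, and the other groups were taken 4 h or 8 h after remimazolam at 6 mg/kg. Remimazolam is a short-acting benzodiazepine, a class of sedatives that act on the GABA(A) receptor, and the series asks about its effect on T cell activation. The treatment protocol and the cell type label describe a sort of CD45+CD3+CD5+ cells, whereas the extract protocol describes CD45+ cells. Saline mice were collected at 0 h alone, so the drug and the time of collection cannot be told apart. Each group formed 1 pool, marked by its own oligonucleotide tag on an antibody, and the 3 pools went through 1 capture, so no barcode is shared between captures. With 1 pool per treatment, no difference between treatments has a replicate check and no p-value is given. All intervals below are exact 95% intervals that cover counting error only. Those of gene levels count each molecule as independent. Molecules of a gene lie together in cells, so these intervals are too narrow where few cells hold most of them.

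Egr and Nr4a genes are immediate early genes, which are transcribed within minutes of T cell receptor engagement without new protein synthesis. Their mRNAs decay quickly, so in a resting spleen they mark T cells that met a signal shortly before they were collected. Egr2 and Egr3 encode zinc finger factors that restrain T cell activation, and Nr4a1, whose product is also called Nur77, is used as a reporter of receptor signal strength in mice. Surface CD69 and 4-1BB, encoded by Cd69 and Tnfrsf9, follow the same stimulus. Dissociation of tissue can also induce immediate early genes.

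The promoters of genes that define or lead these cells are shown with the motifs of factors that respond to signals. The motifs were the ATF and CREB half-site TGACG, whose factors are phosphorylated after stimulation, and the CArG box, bound by serum response factor. The CArG box was any CCWWWWWWGG, where W is A or T. Both were searched on both strands in the 250 bases upstream of a transcript start that RefSeq gives. The motifs were chosen after the data were seen, and a match is a description of the letters, not a bound site. The sequences are those of RefSeq on GRCm38.p6, written 5′ to 3′ on the strand of the gene, with the motifs in capitals (CGTCA is TGACG read on the other strand). They are those of Egr2 at chr10:67537619-67537868 on the plus strand, Nr4a1 at chr15:101266596-101266845 on the plus strand, Nr4a2 at chr2:57124004-57124253 on the minus strand and Nr4a3 at chr4:48045055-48045152 on the plus strand. RefSeq has 5 such windows for Egr2, of which the one shown, like that of Nr4a1, lies within the longer span that GENCODE gives the gene. Nr4a2 is shown since it was the gene outside the rule with the highest ratio in the stimulated cells.
Egr2: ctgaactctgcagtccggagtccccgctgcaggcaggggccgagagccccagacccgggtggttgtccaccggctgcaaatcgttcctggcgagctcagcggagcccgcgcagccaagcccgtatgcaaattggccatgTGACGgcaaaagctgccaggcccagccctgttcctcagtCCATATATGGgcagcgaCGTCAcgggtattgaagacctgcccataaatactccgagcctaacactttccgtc
Nr4a1: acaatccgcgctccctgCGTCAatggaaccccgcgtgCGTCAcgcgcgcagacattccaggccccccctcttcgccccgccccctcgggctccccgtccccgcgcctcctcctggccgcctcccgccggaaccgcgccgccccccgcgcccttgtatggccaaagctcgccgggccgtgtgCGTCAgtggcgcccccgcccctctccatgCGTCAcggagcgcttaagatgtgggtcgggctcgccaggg
Nr4a2: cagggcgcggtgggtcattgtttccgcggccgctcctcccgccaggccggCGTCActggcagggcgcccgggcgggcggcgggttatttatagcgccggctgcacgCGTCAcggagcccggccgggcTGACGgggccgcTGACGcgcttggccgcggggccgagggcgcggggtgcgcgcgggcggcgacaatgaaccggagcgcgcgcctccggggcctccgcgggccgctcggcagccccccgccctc
Nr4a3: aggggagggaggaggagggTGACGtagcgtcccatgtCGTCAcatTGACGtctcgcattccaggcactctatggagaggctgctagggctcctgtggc

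TGACG stood at 2 places in the Egr2 window and at 4 places in each of the Nr4a1, Nr4a2 and Nr4a3 windows, with 3 of the 4 of Nr4a3 in the 98 bases shown. The rest of the Nr4a3 window overlaps an annotated exon and is not printed. The CArG box of Egr2, CCATATATGG, began 72 bases upstream of the start. Among all 32851 windows of this length, TGACG was found in 17.8%, TGACG at 4 or more places in 0.137%, and this type of CArG box in 1.47%. On GRCm38 in GENCODE M21, Egr2 lies on chromosome 10 from 67535475 to 67542188 and Egr3 on chromosome 14 from 70077203 to 70082614. Nr4a1 lies on chromosome 15 from 101254269 to 101274795 and Nr4a3 on chromosome 4 from 48045153 to 48086447, all on the plus strand.

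The T cell and activation markers were those of the label. Of the stimulated cells, 88.2% held a Cd3e molecule and 97.0% a Trac molecule, the constant part of the T cell receptor α chain, against 83.5% and 93.9% of the other T cells. As the ratio of the level in stimulated to that in other T cells, Cd3e had 1.09 and the kinase gene Lck 1.01. Of 20 genes of the T cell receptor complex and its proximal signalling, 2 were at least 1.5-fold higher in each pool and 0 were lower. These were the adaptor gene Lcp2 at 1.99 and the kinase gene Zap70 at 1.75, and the median log2 ratio of the list was -0.00. Of all genes with at least 50 molecules in the stimulated cells, 3.8% were higher and 0.735% lower in each pool. The summed B cell marker genes stood at 321, 457 and 384 CPM in stimulated cells of the saline, 4 h and 8 h pools, against 429, 409 and 417 CPM in other T cells. CPM gives the molecules of a gene per 1000000 molecules of the same class and pool. Neutrophil markers summed to 0, 0 and 12.7 CPM in stimulated cells, against 1.39, 13.6 and 3.10 CPM in other T cells. The natural killer cell list summed to 211, 296 and 149 CPM, against 180, 184 and 186 CPM. Its part in the results was not tested. The heat shock and dissociation list was higher in the stimulated cells, at 7443, 8490 and 7395 CPM against 5450, 5298 and 5543 CPM, and the part of dissociation in the state of these cells was not tested.

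The stimulated cells were somewhat deeper than the other T cells. Their median cell held 2778, 2971 and 3014 molecules in the saline, 4 h and 8 h pools, against 2541, 2513 and 2520 in the other T cells. A deeper cell has more chance to show 2 of the 5 genes, so shares are also given after each cell was thinned to 1500 molecules. In the stimulated class, 663952, 645960 and 632064 molecules were summed in the saline, 4 h and 8 h pools, and a count of 3 molecules was worth 4.52, 4.64 and 4.75 CPM. The median mitochondrial share of their molecules was 9.17%, 8.76% and 9.04%.

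Egr1, the most widely detected of the 5 genes, stood at 1848, 1700 and 1623 CPM in stimulated cells of the saline, 4 h and 8 h pools, against 61.2, 46.3 and 65.5 CPM in other T cells. Egr2 stood at 465, 452 and 316 CPM, against 1.16, 1.28 and 1.74 CPM. Egr3 stood at 848, 670 and 682 CPM, against 3.17, 2.87 and 4.69 CPM. For each of these zinc finger factors all 3 pools of stimulated cells were far above all 3 pools of other T cells, which the rule fixes. Nr4a1 stood at 679, 720 and 628 CPM, against 7.04, 4.83 and 7.71 CPM. Nr4a3, another orphan nuclear receptor gene of the family, stood at 408, 387 and 335 CPM, against 3.33, 4.45 and 3.4 CPM. The single cell with most molecules held at most 12.9% of any of these totals, so none of them rested on a single cell.

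**Figure D1:**
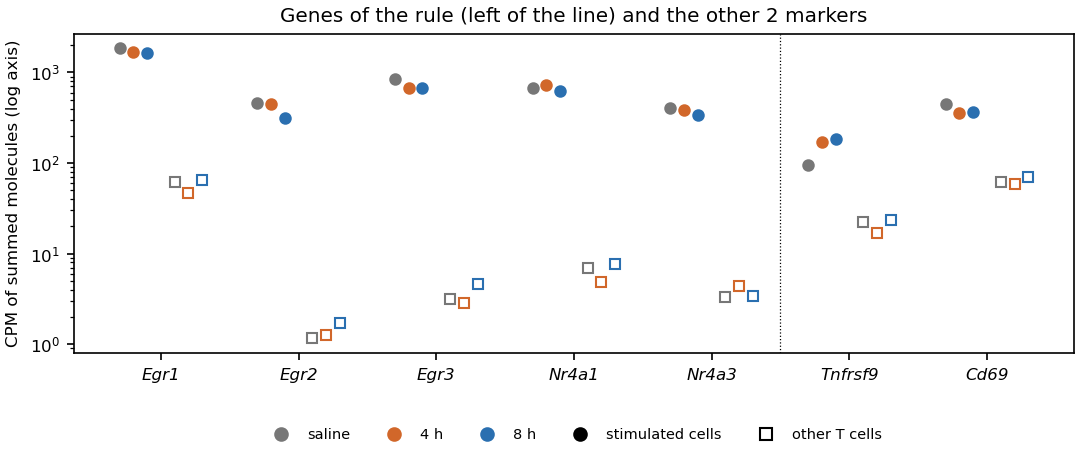
Levels of the 5 rule genes and of the markers Tnfrsf9 and Cd69, in CPM on a log axis, in stimulated and other T cells of the saline, 4 h and 8 h pools. Each point is 1 class in 1 pool, and stimulated cells lie above other T cells for every gene, with Cd69 at 361 to 450 CPM against 59.1 to 70.4 CPM.

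Free RNA in the capture wells gives a background that B cells can measure, since they were selected on none of these genes. An Egr2 molecule was found in 53.5% of stimulated cells, 2.30% of 392 B cells and 0.345% of other T cells. Nr4a1 was found in 52.6%, 4.85% and 1.45%, and Nr4a3 in 30.7%, 1.02% and 0.896%. Egr1 was found in 87.8%, 7.91% and 7.30%, and Egr3 in 58.5%, 12% and 0.662%. B cells express Egr genes themselves, so their shares are an upper guide to free RNA. The median B cell held 2180 molecules, the median stimulated cell 2910.5 and the median other T cell 2526.

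The 5 genes occurred together in the same cells. Among all T cells without Cd79a, 81.5% of those with an Egr2 molecule also had Egr1, against 8.64% of those without Egr2. Nr4a1 was found in 44.9% of cells with Egr3 and in 2.18% of cells without it, and Egr3 in 38.2% of cells with Nr4a3 and in 2.13% without it. The counts of cells were 281 with 2 of the genes, 152 with 3, 98 with 4 and 43 with all 5. Cells with exactly 2 genes lie just inside the rule and cells with exactly 1, 1546 in number, lie just outside it. The most frequent pattern was Egr1 with Egr2, in 98 cells or 17.1% of the class, and the next was Egr1, Egr2, Egr3 and Nr4a1, in 63 cells or 11%. Genes of both families were found together in 349 cells, or 60.8%, while 213 cells had Egr genes only and 12 had Nr4a genes only.

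Stimulated cells were a small and similar part of the T cells in each pool, slightly more frequent in saline. They made up 4.25% of T cells in the saline pool (3.71 to 4.84), 3.47% in the 4 h pool (2.98 to 4.01) and 3.57% in the 8 h pool (3.08 to 4.11), from 213, 178 and 183 cells. The share at 4 h was 0.816 of the saline share (0.665 to 1.00) and the share at 8 h was 0.839 of it (0.685 to 1.03), and the 8 h share was 1.03 of the 4 h share (0.832 to 1.27). Both ratios to saline share the same saline pool. After thinning to 1500 molecules, the shares were 3.23%, 2.66% and 2.31% in the saline, 4 h and 8 h pools, and the 4 h share was 0.825 of the saline share (0.643 to 1.06) and the 8 h share 0.714 of it (0.551 to 0.924). Thinning left out 231, 241 and 256 shallower T cells, and others no longer held a Cd3 molecule, so these shares are of 4488, 4616 and 4593 cells. T cells with exactly 1 of the genes were more frequent at 8 h, at 11.4% of T cells against 9.96% in saline, a ratio of 1.15 (1.02 to 1.30). At 4 h they made up 9.38%. With a rule of at least 1 gene, the 8 h ratio was 1.05.

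**Figure D2:**
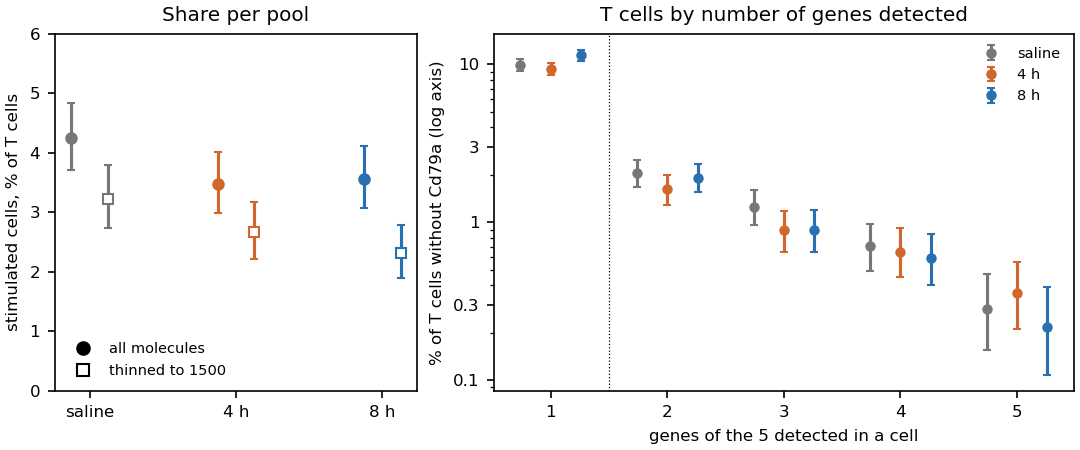
Left, stimulated cells as a percentage of T cells in the saline, 4 h and 8 h pools, with all molecules and after thinning each cell to 1500, with exact 95% intervals. Right, percentage of T cells without Cd79a by the number of the 5 genes detected, on a log axis. The share was 4.25% in saline, 3.47% at 4 h and 3.57% at 8 h, and the intervals of the unthinned shares overlap.

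Stimulated cells were found in every lineage gate, and over the 3 pools together their share was highest among cells with Foxp3, the lineage factor gene of regulatory T cells. They made up 9.13% of the Foxp3 gate, from 70 of 767 cells, at 8.61%, 9.16% and 9.56% in the saline, 4 h and 8 h pools. In the CD4 gate they made up 3.72%, from 196 of 5263 cells, and in the CD8 gate 2.83%, from 166 of 5874. Each pool gave the order Foxp3, CD4, CD8, with 4.15%, 3.50% and 3.52% in the CD4 gate and 3.26%, 2.56% and 2.67% in the CD8 gate. The natural killer T-type gate gave 4.63% and the γδ gate 4.79%, from 13 and 14 stimulated cells. By pool the natural killer T-type gate gave 9.21% in saline, 3.33% at 4 h and 2.35% at 8 h, from 7, 4 and 2 stimulated cells, and its saline share was above that of the Foxp3 gate. The γδ gate gave 7.87%, 3.42% and 3.49%, from 7, 4 and 3 stimulated cells. Cells with both Cd4 and Cd8 molecules gave 6.14% and cells with neither 3.36%. Whether cells with both were doublets was not tested. The shares within gates were not thinned, and a gate needs a detected molecule, so the part of depth in them was not tested. Foxp3 gate cells made up 12.2% of the stimulated class and 4.76% of the other T cells, while CD8 gate cells made up 28.9% and 38.9%.

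Beyond the 5 genes, the stimulated cells carried a wide activation program. Of 5711 genes with at least 50 molecules in the stimulated cells, 217 (3.8%) were at least 1.5-fold higher than in the other T cells in each of the 3 pools, and 42 (0.735%) were at least 1.5-fold lower in each. The minimum of 50 molecules favours genes that are high in the stimulated cells. With a minimum on the mean level of both classes in its place, chosen after the data were seen, the counts were 180 and 54. The median log2 ratio of all genes tested was 0.04. In the lists below, a member was measured when it reached the minimum of 50 molecules in the stimulated cells. A scarce member is thus measured only where it is high in these cells. The counts and medians of lists with scarce members lean upward for that reason. These counts describe a class that was chosen on genes of the same cells.

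Of the given markers, Cd69, the early activation antigen that holds T cells in lymphoid tissue, stood at 450, 361 and 367 CPM in stimulated cells of the saline, 4 h and 8 h pools, against 61.1, 59.1 and 70.4 CPM in other T cells. Tnfrsf9, the costimulatory receptor 4-1BB, stood at 94.9, 170 and 184 CPM, against 22.2, 17.1 and 23.6 CPM. The stimulated pools did not overlap the others for either gene, with summed ratios of 6.19 for Cd69 (5.70 to 6.72) and 7.11 for Tnfrsf9 (6.19 to 8.13). A Cd69 molecule was found in 49.0% of stimulated cells, 12.6% of other T cells and 10.2% of B cells, and a Tnfrsf9 molecule in 17.1%, 3.21% and 0.510%. After thinning, the shares in stimulated and other T cells were 35.6% and 7.99% for Cd69 and 11.5% and 2.13% for Tnfrsf9.

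The other immediate early genes stood out next. Of 17 measured members of the immediate early list outside the rule (21 in all), 9 were higher and 1 was lower, with a median log2 ratio of 1.23. Nr4a2, the remaining member of the Nr4a family, stood at 45.2, 68.1 and 53.8 CPM in stimulated cells of the saline, 4 h and 8 h pools, against 0.619, 1.06 and 1.29 CPM in other T cells, a ratio of 56.2 (38.6 to 83.2). Fosb, which encodes a partner of JUN proteins in AP-1, stood at 42.2, 89.8 and 57.0 CPM, against 1.47, 1.59 and 1.89 CPM, a ratio of 38.1 (28.0 to 52.3). These were the 2 highest summed ratios among the 217 genes apart from the rule genes, and the molecules of each lay in 37 stimulated cells. Nab2, which encodes a corepressor that binds EGR proteins, stood at 233, 286 and 293 CPM, against 48.4, 57.6 and 51.5 CPM, a ratio of 5.14. Fos stood at 110, 104 and 130 CPM, against 23.5, 20.2 and 24.9 CPM, a ratio of 5.01. Plk3, a kinase gene of the early stress response, had a ratio of 11.5 from 139 molecules in 114 cells. Junb had a summed ratio of 1.55 and did not reach 1.5 in every pool. Klf6 was the member that was lower, at 114, 94.4 and 94.9 CPM against 187, 187 and 192 CPM.

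Transcription factors that follow receptor signalling were also higher. Irf4, which scales effector programs with signal strength, stood at 72.3, 92.9 and 88.6 CPM in stimulated cells of the saline, 4 h and 8 h pools, against 3.48, 3.93 and 4.92 CPM in other T cells, a ratio of 20.5 (16.4 to 25.7). In the AP-1, BATF and IRF list 7 of 10 measured members (17 in all) were higher and 0 lower, with a median log2 ratio of 1.14. Irf8, another interferon regulatory factor gene, had a ratio of 9.23. Nfatc1, which encodes a calcium-regulated factor, stood at 541, 441 and 486 CPM, against 154, 152 and 161 CPM, a ratio of 3.14. Myc, the driver of growth after activation, stood at 298, 268 and 242 CPM, against 83.2, 72.2 and 83.6 CPM, a ratio of 3.39. The list of MYC and growth genes had 10 of 26 measured members (29 in all) higher and 0 lower, including the transferrin receptor gene Tfrc at 3.55 and the polyamine enzyme gene Odc1 at 3.42.

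NF-kB genes and costimulatory receptors of the tumour necrosis factor receptor family followed. Nfkbid, which encodes the atypical IκB protein IκBNS, stood at 499, 398 and 342 CPM in stimulated cells of the saline, 4 h and 8 h pools, against 47.5, 52.8 and 51.1 CPM in other T cells. Its ratio was 8.20 (7.54 to 8.90), from 804 molecules in 275 cells. The NF-kB list had 6 of 13 measured members (19 in all) higher and 0 lower, with Rel, the NF-kB subunit of activated lymphocytes, at 181, 161 and 185 CPM against 46.1, 40.5 and 42.6 CPM. The costimulator list had 13 of 21 measured members (24 in all) higher and 0 lower, with a median log2 ratio of 1.42. Tnfrsf4, which encodes OX40, stood at 97.9, 138 and 136 CPM, against 16.1, 18.0 and 17.5 CPM, a ratio of 7.18. Cd83, a surface marker of activated lymphocytes, stood at 58.7, 58.8 and 119 CPM, against 4.64, 5.36 and 10.2 CPM, a ratio of 11.6.

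Genes that restrain the same signals were higher alongside them. In the feedback inhibitor list 15 of 25 measured members (30 in all) were higher and 0 lower, with a median log2 ratio of 0.86. Dusp2, a nuclear phosphatase gene of MAP kinases, stood at 1042, 1062 and 888 CPM in stimulated cells of the saline, 4 h and 8 h pools, against 321, 294 and 289 CPM in other T cells, a ratio of 3.31 (3.16 to 3.48). Spry1, an inhibitor of RAS signalling, stood at 43.7, 41.8 and 52.2 CPM, against 2.71, 4.23 and 4.69 CPM, a ratio of 11.8. Zfp36, which encodes an mRNA decay factor, stood at 815, 825 and 850 CPM, against 322, 315 and 322 CPM. Dusp5 had a ratio of 4.00 and Dusp6 one of 2.35, both phosphatases of ERK kinases. The inhibitory receptor list had 2 of 7 measured members higher, among them Pdcd1, which encodes PD-1, at 5.58. Ctla4, the inhibitory CD28 relative, had a ratio of 5.90. Rgs16, a regulator of G protein signalling, stood at 33.1, 63.5 and 69.6 CPM, against 1.93, 2.04 and 3.55 CPM.

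Several chemokine genes were measured from few cells, while Tnf was found in 145 of the stimulated cells. Of 8 measured members of the cytokine list (25 in all), 6 were higher and 1 lower, with a median log2 ratio of 2.14. The other members fell short of the minimum, which was set on the stimulated cells alone, so this count and median lean upward. Tnf, the tumour necrosis factor gene, stood at 169, 186 and 123 CPM in stimulated cells of the saline, 4 h and 8 h pools, against 16.1, 21.0 and 20 CPM in other T cells, a ratio of 8.37 (7.31 to 9.57). Ccl4, a chemokine gene of activated CD8 and natural killer cells, had a ratio of 25.3 from 106 molecules in 12 cells, of which 30.2% lay in 1 cell. Xcl1, the chemokine gene for cross-presenting dendritic cells, had a ratio of 10.6 from 366 molecules in 32 cells. The interferon-induced chemokine gene Cxcl10 had a ratio of 19 from 58 molecules in 17 cells, 32.8% of them in 1 cell. The member that was lower was Ccl5, a chemokine gene of memory CD8 cells, at 117, 130 and 165 CPM against 288, 362 and 341 CPM.

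The 8 measured members of the regulatory T list (13 in all) were higher, with a median log2 ratio of 1.39, and 4 of the 8 were with the other T cells weighted to the gate mix of the stimulated class. Foxp3 stood at 143, 141 and 161 CPM in stimulated cells of the saline, 4 h and 8 h pools, against 54.3, 57.2 and 55.6 CPM in other T cells, a ratio of 2.66. Foxp3 defines a gate, so the weighting fixes its own ratio near 1. Il2ra, the high-affinity chain of the interleukin-2 receptor, had a ratio of 4.01 without and 1.91 with the weighting. Ctla4 stood at 3.27 and Ikzf2, the Helios gene, at 1.58 after weighting. The T follicular helper list had 5 of 10 measured members higher and the anergy list 5 of 12.

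**Figure D3:**
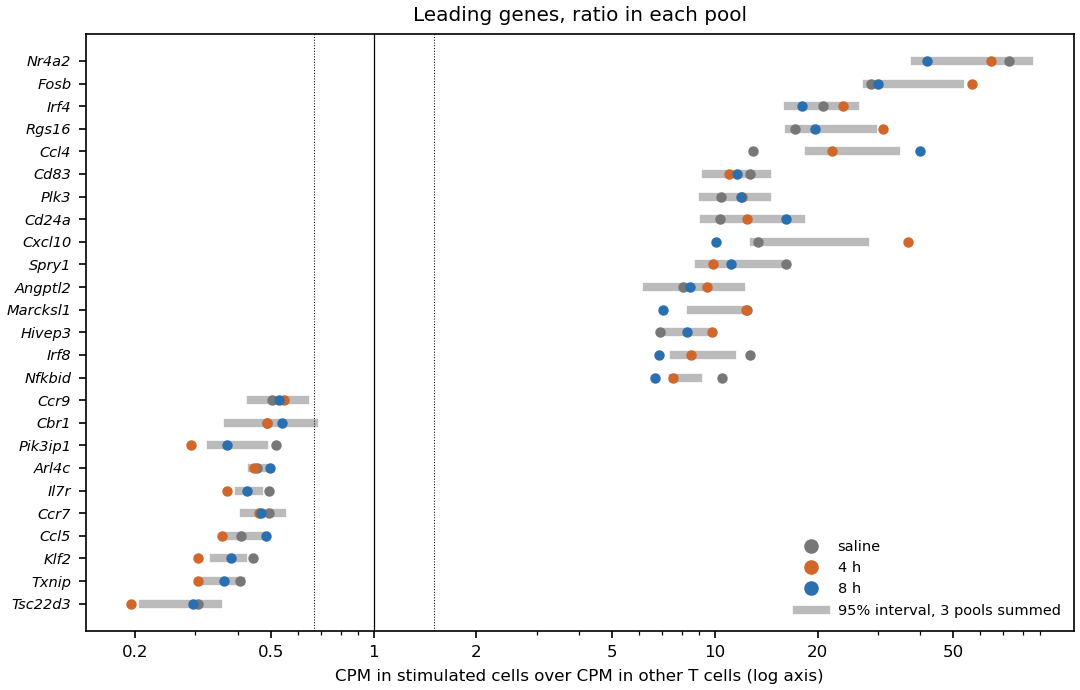
Ratio of the level in stimulated cells to that in other T cells, on a log axis, for the 15 genes with the highest and the 10 with the lowest ratios by the naming rule. Points are the 3 pools, bars are exact 95% intervals of the summed pools, and dotted lines mark 1.5-fold in each direction. The values run from 56.2 for Nr4a2 to 0.273 for Tsc22d3, with all 3 pools on the same side for each gene.

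Genes of quiescence and lymphoid homing were lower in the stimulated cells. In the naive and homing list 7 of 17 measured members (18 in all) were lower and 0 higher, with a median log2 ratio of -0.61. Of the 17, 16 were below 1 in each pool, against 23.4% of all genes tested. Klf2, the quiescence factor that drives homing receptors, stood at 255, 173 and 220 CPM in stimulated cells of the saline, 4 h and 8 h pools, against 577, 569 and 578 CPM in other T cells, a ratio of 0.377 (0.341 to 0.415). S1pr1, the KLF2 target that lets T cells leave lymphoid organs, stood at 345, 266 and 278 CPM, against 521, 511 and 504 CPM, a ratio of 0.580. Ccr7, the lymph node homing receptor gene, stood at 134, 119 and 127 CPM, against 273, 258 and 270 CPM. Il7r, the receptor for the survival cytokine interleukin-7, stood at 497, 368 and 437 CPM, against 1011, 991 and 1025 CPM, a ratio of 0.431 (0.402 to 0.461). In each of these genes the 3 pools of stimulated cells lay below the 3 pools of other T cells.

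The lowest ratio of all named genes was that of Tsc22d3, which encodes the glucocorticoid-induced protein GILZ. It stood at 46.7, 20.1 and 33.2 CPM in stimulated cells of the saline, 4 h and 8 h pools, against 153, 104 and 112 CPM in other T cells, a ratio of 0.273 (0.210 to 0.348). The glucocorticoid response list had 6 of 17 measured members (18 in all) lower and 2 higher, with a median log2 ratio of -0.48. Txnip, which encodes a brake on glucose uptake, stood at 184, 116 and 136 CPM, against 454, 380 and 374 CPM, a ratio of 0.362. Pik3ip1, an inhibitor of PI3 kinase, had a ratio of 0.401 and Arl4c one of 0.464. The memory list had 0 of 19 measured members higher and 2 lower, the interferon list 0 of 18 in either direction, and the sterol synthesis list 0 of 11. In the interferon list 11 of the 18 were below 1 in each pool and 1 was above. Among all genes tested, 23.4% were below and 29.9% above. The proliferation list had 2 of 14 higher, the apoptosis list 3 of 12 and the heat shock list 2 of 12. Of all genes tested, 3.8% were higher and 0.735% lower. In the heat shock and dissociation list 11 of the 12 were above 1 in each pool, against 29.9% of all genes tested. Its median log2 ratio was 0.56.

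The levels of several activation genes rose with the number of rule genes detected. The cells were grouped by the rule genes themselves, and most of the genes shown were chosen on the same cells. The steps thus describe and do not test. Cd69 stood at 57.3 CPM in T cells with none of the genes, and at 110, 203, 510, 592 and 819 CPM in cells with 1, 2, 3, 4 and 5 of them. Nfkbid stood at 47.7, 71.6, 202, 370, 671 and 1362 CPM from none to 5, and Nr4a2 at 0.863, 1.95, 7.17, 37.8, 124 and 275 CPM. Fosb stood at 1.5, 2.82, 6.14, 16.8, 121 and 450 CPM. Each of these was higher at every step. Tnfrsf9, with 18.0, 43.0, 134, 178, 100 and 262 CPM, was not. Nor were Cd83, Rgs16, Irf8, Hivep3, Angptl2, Cd24a and Cxcl10, of which Cd83 had 113 CPM with 3 of the genes and 100 CPM with 4. In the other direction, Klf2 stood at 587, 482, 242, 231, 182 and 80.5 CPM and Il7r at 1013, 979, 474, 437, 400 and 248 CPM. Tsc22d3 stood at 125, 107, 44.0, 33.6, 14.7 and 6.7 CPM. Cells with exactly 1 gene thus lay nearer to cells with none than to cells with 2 for Klf2 and Il7r. For Cd69 this held for the difference in CPM but not for the ratio. The median cell held 2510 molecules with none of the genes and 3014 with all 5, and CPM is relative to the molecules of each class.

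**Figure D4:**
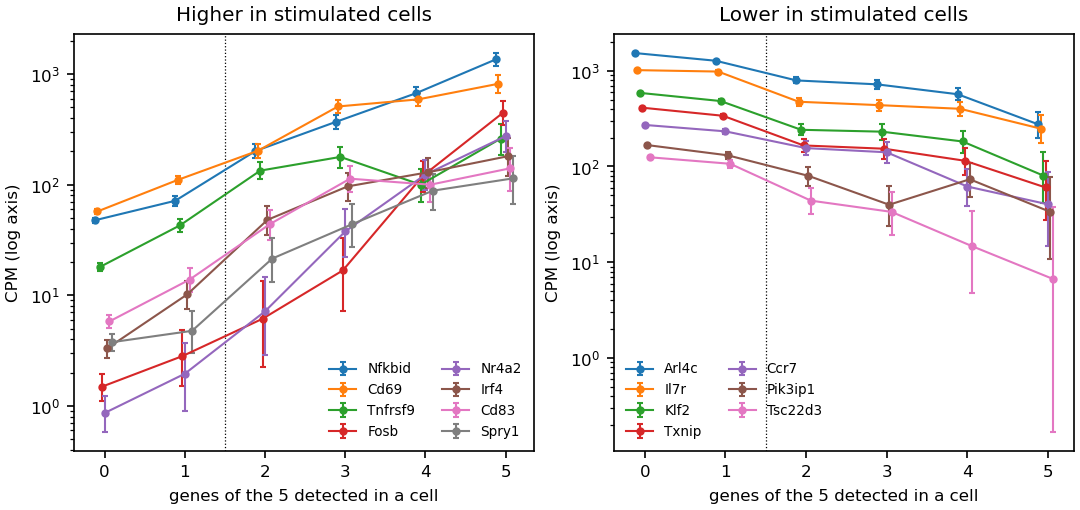
Level in CPM, on a log axis, by the number of the 5 rule genes detected per cell, from 0 to 5, with the 3 pools summed and exact 95% intervals. Left, genes higher in stimulated cells, and right, genes lower in them. Cd69 goes up at each step to 819 CPM in cells with all 5 genes, and Klf2 goes down at each step to 80.5 CPM.

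Within lineage gates most of the difference was still seen. The genes counted here were chosen on the same cells, of which these gates are parts, so the counts describe and do not test. Of the 15 genes with the highest ratios, 14 were at least 1.5-fold higher in the CD4 gate, 14 in the CD8 gate, and 13 of the 13 with more than 3 molecules in the Foxp3 gate. Of the 10 lowest genes, 10 were at least 1.5-fold lower in the CD4 gate, 8 in the CD8 gate and 8 in the Foxp3 gate. Cd69 stood at 448 CPM in stimulated and 55.0 CPM in other cells of the CD4 gate, at 420 and 67.8 CPM in the CD8 gate, and at 296 and 68.5 CPM in the Foxp3 gate. Nfkbid had ratios of 11.8 in the CD4 gate, 5.0 in the CD8 gate and 8.59 in the Foxp3 gate. Fosb stood at 100 CPM in stimulated and 1.27 CPM in other CD8 gate cells, and at 28.4 and 1.96 CPM in the CD4 gate. Ccl4 stood at 137 and 3.58 CPM in the CD8 gate and had 0 molecules in stimulated CD4 gate cells.

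The Foxp3 gate was distinct in its baseline. Its other cells already held Tnfrsf9 at 122 CPM and Cd83 at 82.3 CPM, against 399 and 265 CPM in its stimulated cells, ratios of 3.28 and 3.22 with the stimulated cells on top. In the CD4 gate Tnfrsf9 stood at 140 CPM in stimulated and 13.3 CPM in other cells, and Cd83 at 46.8 and 3.38 CPM. Il7r was lower in stimulated cells of the CD4 gate (0.464) and the CD8 gate (0.439), and nearer to the other cells in the Foxp3 gate (0.716), whose other cells held 478 CPM. Irf4 stood at 181 CPM in stimulated and 14.8 CPM in other Foxp3 gate cells. Xcl1 had 231 of its 366 molecules in 13 of the 166 stimulated CD8 gate cells, at 406 CPM, and 1 molecule in the CD4 gate. Of those in the CD8 gate, 121 lay in 3 cells at 8 h. The natural killer T-type gate had a higher level, at 921 CPM from 41 molecules in 6 of its 13 stimulated cells.

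At 4 h after remimazolam the stimulated cells held more molecules of cell cycle genes, of Tnfrsf9 and of Lgals1, and fewer of Myb, Tent5c and Pik3ip1, than in saline. Of 4500 genes with at least 50 molecules in both pools together, 283 (6.29%) were at least 1.5-fold higher and 195 (4.33%) at least 1.5-fold lower, and the interval left out 1 for 182 and 111 of these. The median log2 ratio of all genes tested was 0.01. The 5 rule genes were measured on cells chosen by them, and 0 of 5 passed the fold in any comparison. Egr1 had a ratio of 0.920 at 4 h and 0.878 at 8 h, Egr3 0.791 and 0.804, and Nr4a1 1.06 and 0.925. Egr2 stood at 316 CPM at 8 h against 465 CPM in saline, a ratio of 0.680 (0.566 to 0.815), and had 0.971 at 4 h.

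The cycle genes led the 4 h comparison. Top2a, which encodes the DNA topoisomerase of dividing cells, stood at 167 CPM at 4 h against 19.6 CPM in saline, a ratio of 8.54 (4.79 to 16.6), while in other T cells its ratio was 0.954. The replication factor gene Pclaf stood at 150 against 7.53 CPM and the proliferation antigen gene Mki67 at 96.0 against 4.52 CPM, the last from 62 molecules at 4 h and 3 in saline. In the proliferation list 8 of 12 measured members were at least 1.5-fold higher, with a median log2 ratio of 0.73. The cells that held such genes were few. A Mki67 or Top2a molecule was found in 21 of 178 stimulated cells at 4 h (11.8%) and 10 of 213 in saline (4.69%), against 4.67% and 4.28% of other T cells. The median of such stimulated cells was 6260 molecules at 4 h and 2929 in saline. Without cells of more than 5000 molecules, an alternative chosen after the data were seen, 5 of the 8 members fell under 50 molecules and were no longer counted, and the other 3 were under the fold. Hmgb2, a chromatin protein gene, then had 1.06 and had 2.17 with all cells, and the histone gene H2afz had 1.16. Of the 5, Top2a kept 6 molecules at 4 h and 7 in saline, and Mki67 kept 4 and 2, too few to say whether the fold was lost. Stmn1, a microtubule regulator gene, had 0.983 without the large cells and 2.67 with all cells, and is among the 5. Cells of more than 5000 molecules made up 12.9% of stimulated cells at 4 h and 6.57% in saline, and whether they were doublets within a pool was not tested.

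Surface and effector genes differed too. Tnfrsf9 stood at 170 CPM at 4 h against 94.9 CPM in saline, a ratio of 1.79 (1.30 to 2.49), and its ratio in other T cells was 0.768 (0.642 to 0.918). A Tnfrsf9 molecule was found in 21.9% of stimulated cells at 4 h and 12.2% in saline, a ratio of 1.79 (1.07 to 3.07). After thinning it was found in 12.5% and 8.61%, a ratio of 1.45 (0.743 to 2.87) whose interval contained 1. In the CD8 gate the stimulated cells held 28 molecules at 4 h and 2 in saline, from 9 and 1 cells. The CD4 gate held 22 and 23, from 10 and 8 cells, and the Foxp3 gate 41 and 20, from 14 and 8 cells. The level of Cd69 had a ratio of 0.801 (0.672 to 0.954), while a Cd69 molecule was found in 52.8% of stimulated cells at 4 h against 49.8% in saline, a ratio of 1.06 (0.795 to 1.41). Lgals1, which encodes galectin-1, had 183 CPM against 75.3 CPM, a ratio of 2.43 (1.73 to 3.45), which was 1.45 without cells of more than 5000 molecules and 4.04 with at least 3 rule genes. Ctla4 had 135 CPM against 72.3 CPM, a ratio of 1.86 (1.30 to 2.71). Xcl1 stood at 228 against 88.9 CPM, with 37.4% of the 4 h molecules and 57.6% of the saline molecules in 1 cell each.

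Among the genes lower at 4 h, Myb, a factor of progenitor-like and memory T cells, stood at 130 CPM against 253 CPM in saline, a ratio of 0.514 (0.391 to 0.672). In other T cells its ratio was 1.10, and among cells with at least 3 rule genes it was 0.699. Tent5c, which encodes a cytoplasmic poly(A) polymerase, had 13.9 CPM against 69.3 CPM, a ratio of 0.201 (0.0865 to 0.416). Pik3ip1 had 44.9 CPM against 91.9 CPM, a ratio of 0.489, with 0.871 in other T cells. Cyp51, a sterol synthesis enzyme gene, stood at 27.9 against 70.8 CPM, a ratio of 0.394 with 0.755 in other T cells. The sterol list had 3 of 10 measured members lower and 0 higher, and the glucocorticoid list 3 of 12 lower and 0 higher, with a median log2 ratio of -0.39. Of all genes tested at 4 h over saline, 4.33% were lower. Ddit4, a stress-induced inhibitor of mTORC1, had a ratio of 0.630, with 0.726 in other T cells, and Txnip one of 0.632, with 0.836. Dusp6 stood at 0.583 and the ligand gene Tnfsf8 at 0.550, which was 0.348 with at least 3 rule genes. Whether these ratios differ from those in the other T cells was not tested.

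At 8 h the stimulated cells again held more of the cycle genes and Tnfrsf9, together with genes of effector and memory cells. Of 4436 genes, 184 (4.15%) were at least 1.5-fold higher than in saline and 176 (3.97%) lower, with intervals that left out 1 for 107 and 103, and a median log2 ratio of -0.01. S100a6, a calcium-binding protein gene of memory cells, stood at 149 CPM at 8 h against 67.8 CPM in saline, a ratio of 2.19 (1.52 to 3.20), with 0.871 in other T cells. It was 1.33 without the Mki67 or Top2a cells and 1.10 with at least 3 rule genes. Vim, which encodes vimentin, had 386 CPM against 203 CPM, a ratio of 1.9 (1.53 to 2.36). Lgals1 had 209 CPM against 75.3 CPM, a ratio of 2.77 (1.99 to 3.92). The memory and effector list had 6 of 18 measured members higher and 1 lower, and 3 higher without the Mki67 or Top2a cells. Cd44, the adhesion receptor gene of antigen-experienced cells, had 1.62 and Anxa2 1.58.

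Activation genes at 8 h were mixed. Tnfrsf9 stood at 184 CPM at 8 h against 94.9 CPM in saline, a ratio of 1.93 (1.41 to 2.67), with 1.06 in other T cells. It was found in 18.0% against 12.2% of stimulated cells, a ratio of 1.48 (0.857 to 2.57). After thinning this ratio was 1.62 (0.850 to 3.16), and both of these intervals of cell shares contained 1. Its CD8 gate molecules were 26 at 8 h, from 6 cells, and 2 in saline, from 1 cell. Cd83 had 119 CPM against 58.7 CPM, a ratio of 2.02 with 2.20 in other T cells, and 1.33 without cells of more than 5000 molecules. Cd69 had 0.815 (0.684 to 0.971), with 1.15 in other T cells, and was found in 44.3% against 49.8% of stimulated cells. The NF-kB inhibitors Nfkbie and Nfkbiz had 1.81 and 1.63. Ccl4 stood at 106 against 36.1 CPM, with 47.8% of its 8 h molecules and 79.2% of its saline molecules in 1 cell each, so its ratio of 2.93 describes a few cells. It was 7.38 without those cells and 1.01 without cells of more than 5000 molecules. Xcl1 had a ratio of 2.85, and of 1.5 without cells of more than 5000 molecules.

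The proliferation list had 4 of 12 measured members higher at 8 h. Without the large cells 3 of the 4 were no longer counted, and Hmgb2, which was, had 0.858. Top2a stood at 119 CPM at 8 h against 19.6 CPM in saline, a ratio of 6.06, and with 12 and 7 molecules left without the large cells its ratio was 1.99. Pclaf stood at 85.4 against 7.53 CPM. A Mki67 or Top2a molecule was found in 17 of 183 stimulated cells at 8 h, or 9.29%, against 4.69% in saline. Lower at 8 h were Myb at 133 against 253 CPM, a ratio of 0.525 with 1.13 in other T cells, and Eomes, the T-box factor gene of memory CD8 cells, at 82.3 against 149 CPM, a ratio of 0.552 that was 0.313 with at least 3 rule genes. Tgtp1, an interferon-inducible GTPase gene, stood at 22.1 against 63.3 CPM, and Irf8 and Dusp6 had 0.576 and 0.566. Cd200, an inhibitory ligand gene, had 0.630. The glucocorticoid list had 1 of 13 lower at 8 h, and the naive and homing list 0 of 17 in either direction, against 2 lower at 4 h. Of all genes tested, 3.97% were lower at 8 h and 4.33% at 4 h. These list counts are small, and a difference between the times was not tested.

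**Figure D5:**
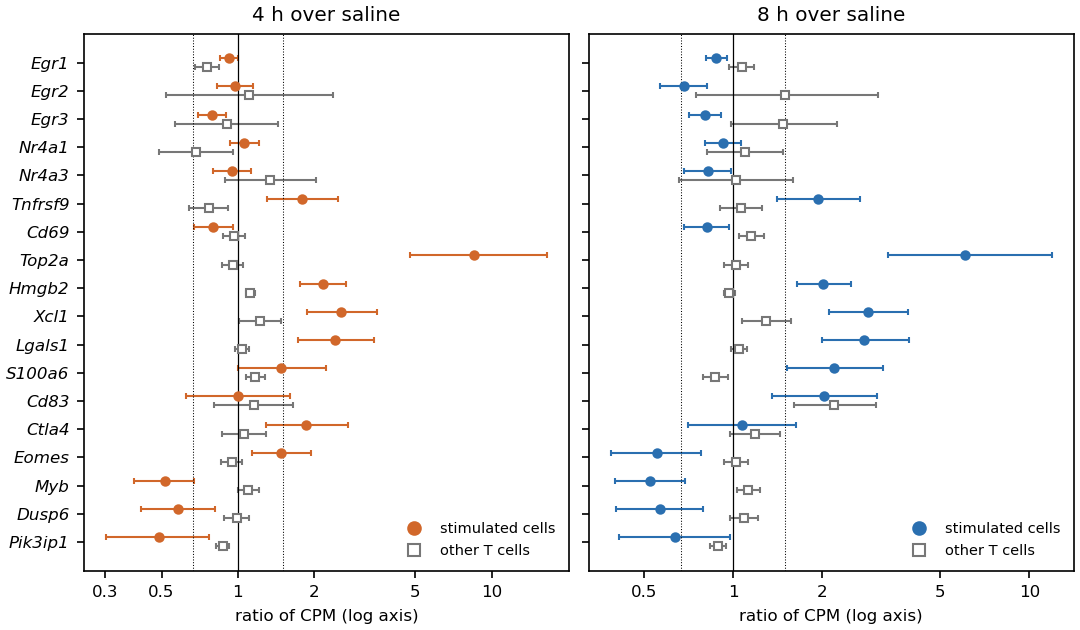
Ratio of the level at 4 h to saline and at 8 h to saline, on a log axis, in stimulated and in other T cells, with exact 95% intervals. Both panels share the saline pool. Tnfrsf9 lies at 1.79 and 1.93 and Myb at 0.514 and 0.525 in stimulated cells, while the other T cells lie nearer to 1 for both genes.

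Between the drug times, Eif2s1, Ybx3 and Eomes were among the genes lower at 8 h, and Cd83 and Ccl4 among those higher. Of 4428 genes, 171 (3.86%) were at least 1.5-fold higher at 8 h than at 4 h and 263 (5.94%) lower, with a median log2 ratio of -0.01. Eif2s1, a subunit gene of translation initiation factor eIF2, stood at 120 CPM at 8 h against 248 CPM at 4 h, a ratio of 0.485 with 1.11 in other T cells. Hspd1, a mitochondrial chaperonin gene, had 245 CPM against 433 CPM, a ratio of 0.566, and 0.747 without cells of more than 5000 molecules. Ybx3, an RNA-binding protein gene, stood at 127 against 271 CPM, and the nucleolar genes Fbl and Nop58 had 0.642 and 0.662. The list of MYC and growth genes had 4 of 25 measured members lower and 0 higher, with a median log2 ratio of -0.38. Without the large cells Fbl was 0.952, Nop58 0.825 and Ybx3 0.698.

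Single immune genes differed between 8 h and 4 h as well. Eomes stood at 82.3 CPM at 8 h against 221 CPM at 4 h, a ratio of 0.372 (0.265 to 0.514) with 1.08 in other T cells. Ctla4 had a ratio of 0.576 and Tnf one of 0.664, which was 1.09 with at least 3 rule genes. Higher at 8 h were Cd83 at 2.02, Tnfsf8 at 1.84 and the lineage factor gene Gata3 at 1.72. Ccl4 had 106 CPM against 23.2 CPM, a ratio of 4.56 with 2.50 in other T cells. Tnfrsf9 had 1.08 and Cd69 1.02, and both intervals, 0.823 to 1.41 and 0.845 to 1.23, contained 1.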

How the data were processed

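Spleen T cells of mice were profiled on the BD Rhapsody platform as a whole-transcriptome library and a sample-tag library of 1 capture. Reads were processed by the authors with the BD WTA Multiplex Rhapsody Analysis Pipeline 1.9.1 on GRCm38 with GENCODE M19, per the file headers. The authors' table, as deposited, gives counts of molecules in whole numbers for each cell and gene after recursive substitution error correction. Tag reads are deposited as counts for each cell, and the authors' calls gave tag 8 (saline), tag 10 (4 h) or tag 9 (8 h). Calls of a multiplet (1063 cells), no tag (60) or an unused tag (2) were left out, and doublets within a pool were not called.

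Cells needed at least 200 genes and under 25% mitochondrial molecules, which left 16123 cells. Lineage gates used Foxp3, Cd4, Cd8a and Cd8b1, γδ and natural killer T genes. Molecules were summed per class and pool and divided by their total (CPM). Ratios have exact conditional-binomial and shares exact Clopper-Pearson 95% intervals. Genes with at least 50 molecules were counted past 1.5-fold, in each of 3 pools for stimulated against other T cells. A count of 0 allows up to 3 molecules.

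The genes named were those of the rule and the given markers, the 15 highest and 10 lowest called genes between the classes, the 8 at each end of each treatment comparison by interval bound, and in each list the called members and the 4 with most molecules. A few more are members of those lists. Receptor segments, haemoglobins, mitochondrial genes, Xist, Tsix and predicted genes were left out of these ranks. The members, lists and tests were chosen with earlier results of these data known. Alternatives changed 1 choice at a time, and the calculations were checked on simulated data. The software was numpy 2.4.6, scipy 1.17.1, matplotlib 3.10.9 and pandas 2.3.3 in Python 3.11.15, and edgeR 4.0.16 in R 4.3.3 gave TMM factors only. Positions came from GENCODE M21 and promoters from RefSeq, both on GRCm38, matched by symbol. The Egr1 and Egr3 promoters are not shown.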

Additional observations from a re-analysis of the deposited data

Results flagged for a closer look

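For 5 of the genes named, the ratio was past 1.5-fold in stimulated cells and on the other side of 1 in other T cells, with both intervals apart from 1. With 1 pool per treatment none of these differences was tested. Myb had 0.514 in stimulated and 1.10 in other T cells at 4 h over saline, and 0.525 and 1.13 at 8 h over saline. Tnfrsf9 had 1.79 and 0.768 (0.642 to 0.918) at 4 h over saline. S100a6 had 2.19 and 0.871 (0.792 to 0.957) at 8 h over saline. Between 8 h and 4 h, Eif2s1 had 0.485 in stimulated and 1.11 in other T cells, and Fbl had 0.642 and 1.09. Cd69 at 8 h over saline also lay on opposite sides of 1, at 0.815 (0.684 to 0.971) in stimulated and 1.15 (1.05 to 1.27) in other T cells, but short of the fold.

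Mepce, which encodes the methylphosphate capping enzyme of 7SK RNA, had opposite ratios to saline in stimulated cells, 0.639 at 4 h and 1.5 at 8 h, and this difference was not tested. Cells that the authors called multiplets took part in no comparison. Among the 1045 of them with a Cd3 molecule, 63 met the rule of the stimulated class, or 6.03% (4.66 to 7.65), against 4.25% of T cells in the saline pool. The median of these cells was 4493 molecules.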

How the results depend on the processing

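The share of stimulated cells at 4 h over saline lay between 0.748 and 0.904 under every alternative, and at 8 h over saline it turned to 1.05 with at least 1 of the 5 genes. Over all shares and counts of genes under the alternatives, 101 values stayed close to the one reported and 30 moved. The counts of list members were less stable, as 489 values stayed close and 332 moved. For the levels of single genes, 1850 values stayed close, 244 moved and 10 turned round. For stimulated against other T cells, the 217 higher genes became 121 among cells of 2000 to 4000 molecules, 7393 without a minimum and 104 at a fold of 2. The 42 lower genes became 15, 161 and 7 in the same settings, 22 with the mean of each cell's CPM and 16 without cells of more than 5000 molecules. For 4 h over saline, the 283 higher and 195 lower genes became 117 and 116 with at least 3 rule genes, 759 and 609 with a minimum of 20, and 805 and 649 at a lower fold. For 8 h over saline, 184 and 176 became 103 and 113, 595 and 585, and 606 and 661 in those settings. For 8 h over 4 h, 171 and 263 became 105 and 137, 560 and 748, and 614 and 826. Without cells of more than 5000 molecules the 4 h count of higher genes was 162 and the count of genes lower at 8 h than at 4 h was 154. Without Mki67 or Top2a cells the 4 h count of higher genes was 178. These settings without cells, and the minimum on mean CPM, were chosen after the data were seen.

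Of the single genes 10 values turned round. Without cells of more than 5000 molecules Stmn1 was 0.983 at 4 h and 0.976 at 8 h, Hmgb2 0.858 at 8 h and Rrm2 0.580 at 8 h. Without Mki67 or Top2a cells Stmn1 was 0.904 at 4 h, Hmgb2 0.958 and Rrm2 0.929 at 8 h, and Pclaf 0 at 4 h and 8 h. Leaving out cells by Mki67 and Top2a lowers genes found in the same cells by construction, so these values do not test the change. Tnf was 1.09 at 8 h over 4 h with at least 3 rule genes. The cause of the other changes was not tested. The level of Tnfrsf9 lay between 1.59 and 2.06 at 4 h and between 1.72 and 2.17 at 8 h over saline under every alternative for gene levels. Thinning was not among these. Its ratios of cell shares after thinning were 1.45 (0.743 to 2.87) at 4 h and 1.62 (0.850 to 3.16) at 8 h, with 1 in both intervals. No paired analysis was possible because each treatment is 1 pool of 3 mice with no replicate numbers. The depth limits genes under 50 molecules, and no interval here covers differences between mice.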
